A study of Caenorhabditis elegans with 2 samples.

Results

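Of the 5017 reproducible binding peaks of the nuclear hormone receptor NHR-25 in third-stage (L3) larvae of Caenorhabditis elegans, 216 had their summit inside an exon of a protein-coding gene and away from every protein-coding promoter. They were chosen by position alone. A summit counted as exonic when it lay in a coding or untranslated exon of the Ensembl WBcel235 annotation and outside the windows from 2000 bp upstream to 200 bp downstream of the 5' end of each protein-coding gene. The peaks came from ChIP-seq of 2 samples, biological replicates 1 and 2 of a single group, and no second condition was analysed. Both were whole worms of pooled sexes from strain OP33, genotype unc-119(ed3) III with the insertion wgIs33, a line that stably carries NHR-25 with GFP and FLAG at its C-terminal end. The antibody is labelled by its target only, and chromatin was sheared by sonication. The peaks therefore describe the tagged protein in a transgenic line, summed over all tissues. All coordinates are on ce11, the same assembly as WBcel235, and are 1-based.

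NHR-25 is the worm member of the SF-1/FTZ-F1 family of nuclear receptors, which are known for binding DNA as monomers at an extended half-site rather than as pairs at a repeated one. In worms it is known for its part in epidermal and vulval development and in the molts. Most known regulatory binding of such factors lies in promoters, introns and intergenic DNA, while exons carry the message itself. Many C. elegans messages are trans-spliced, and many genes have isoforms that start far inside the gene, so an exon of one isoform can lie just before or at the start of another.

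The sequences below are shown because the half-site is the element known for this receptor family and a GAGAGA run was, of the 4 elements searched, the one met most often at the exonic peaks in 5' untranslated regions (5' UTRs). The extended half-site is 9 bases long and reads C or T, then CAAGG, then C or T, then C, then A or G. Windows of 100 bp to each side of a summit were searched for it on either strand. Its core is CAAGGTC or CAAGGCC, and every extended site holds a core. The first 4 are all the exonic peaks with an extended half-site, and the element is in capitals. The apy-1 site, chosen after its values were seen, has the core in capitals because that core is centred on the summit. The apy-1 peak had no replicate 2 summit within 100 bp. The last 3 show the GAGAGA nearest the summit in 5' UTRs, with the unbroken run of alternating G and A in capitals. They are examples from 25 such 5' UTR peaks, are not the 3 strongest and need not be typical.
gldi-8: aatttccctcCCAAGGCCAcctgggcgcc
ugt-65: agaagagtttCCAAGGTCGtctaagactt
dhs-29: ttggcaaaatCCAAGGCCAtcgctcgacc
D1086.8: tcgagtcaatTCAAGGCCAacacgagtca
apy-1: attgaagacggCAAGGTCagacaactcca
unc-62: gcaaagagattgGAGAGAGttggctggcag
din-1: caacaacaaactGAGAGAccgagacgaaaa
lin-42: tgcgggagaaacGAGAGAGcgcgtcgggct

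The half-site sequences lie at chrIII:12599249-12599277 in gldi-8, chrIV:12427541-12427569 in ugt-65, chrX:7664626-7664654 in dhs-29, chrV:14095065-14095093 in D1086.8 and chrX:7569116-7569144 in apy-1. The first 2 are on the minus strand and the other 3 on the plus strand. The gldi-8 element is in a 5' UTR and the other 4 are in coding exons. The GAGAGA sequences lie on the plus strand at chrV:4507957-4507986 in unc-62, chrII:11619305-11619334 in din-1 and chrII:1236643-1236672 in lin-42. All 30 bases of each are 5' UTR. In unc-62 the run reads GAGAGA on the strand of the message, while in din-1 and lin-42 it is on the opposite strand.

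Exons held few peaks relative to their length, except for 5' UTRs. The 216 exonic peaks made up 4.31% of the 5017 peaks (exact 95% Clopper-Pearson interval 3.76 to 4.90%). Among the 2147 peaks outside promoter windows they were 10.1% (8.82 to 11.4%), whereas exons covered 28.8% of the sequence there. When the 5017 peaks of highest signal in each replicate took the place of the reproducible list, the share was 10.6% in replicate 1 and 11.5% in replicate 2, from 232 and 252 exonic summits. Intervals cover the counting of peaks only. No test was run on these shares, because the peaks of 1 group are not replicates of a condition.

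The exonic peaks fell into 140 in coding sequence, 53 in 5' UTRs, 20 in 3' untranslated regions (3' UTRs) and 3 in exons of non-coding isoforms of protein-coding genes. Per length, 5' UTRs held 112 peaks per Mb, coding sequence 8.75 per Mb and 3' UTRs 10.7 per Mb. Promoter windows held 79.2 per Mb, non-coding genes 51.3, intergenic sequence 49.9 and introns 37.04. The place of 5' UTRs above promoter windows depends on drawing the windows at the gene's 5' end only. Of the 53 peaks in 5' UTRs, 38 lay in a window of the same size around some isoform's 5' end. With windows at every isoform's 5' end, 5' UTRs held 76.4 peaks per Mb. The 5' UTRs outside promoter windows are small, 0.475 Mb or 0.742% of the sequence there, and held 2.47% of the peaks (1.85 to 3.22%). Coding sequence is large, 16 Mb or 25% of that sequence, and held 6.52% (5.51 to 7.65%). The replicates gave nearly the same densities for 5' UTRs, with 103 per Mb in each, and for coding sequence, with 8.93 and 10.6 per Mb in replicates 1 and 2. For 3' UTRs, single replicates gave 20.2 and 15.4 per Mb, above the value from the reproducible list, so that density is the least certain of the 3.

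**Figure D1:**
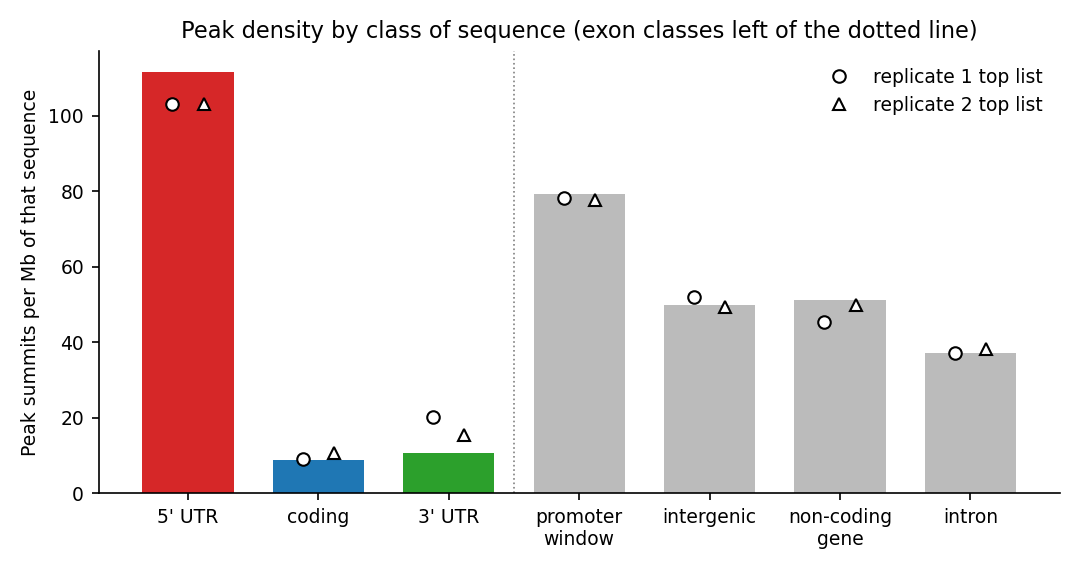
Peak summits per Mb of each class of sequence, for the reproducible list (bars) and the 5017 strongest peaks of each replicate (symbols), with the 3 exon classes left of the dotted line. The 5' UTR bar, at 112 per Mb, stands above the promoter windows at 79.2, while coding sequence and 3' UTRs stand near 10, below introns at 37.04. Windows are at gene 5' ends, and with windows at every isoform's 5' end the 5' UTR density was 76.4 per Mb.

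Coding and 5' UTR shares moved in opposite directions along the ranking by signal, the height that the authors gave each peak. For 5' UTRs the fall lay mostly beyond the reproducible list. In the pooled list, whose first 5017 regions are the reproducible peaks, coding summits were 2.03% of the summits outside promoter windows at ranks 1 to 1000, 4.78% at ranks 1001 to 2500 and 8.996% at ranks 2501 to 5017. Beyond the reproducible list they were 17.2% at ranks 5018 to 10000 and 23.4% at ranks 10001 to 20000, close to the 25% of sequence that is coding. The share in 5' UTRs went the other way, with 2.78%, 2.64% and 2.27% in the first 3 bins and 0.932% at ranks 10001 to 20000, near the 0.742% that their length makes up. At ranks 20001 to 30000 the coding share no longer rose, at 22.3%, and the 5' UTR share was 0.924%. Both replicate lists gave the same order over those bins for coding sequence. At ranks 10001 to 20000 coding summits were 20.4% in replicate 1 and 30.7% in replicate 2, the largest gap between the replicates in any bin. For 5' UTRs replicate 1 fell from bin to bin, while replicate 2 had 2.51% in the first and 2.62% in the second bin before the share fell. The deposited lists hold 30000 regions each and, per the index text, include background regions, so a low rank alone does not show binding.

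**Figure D2:**
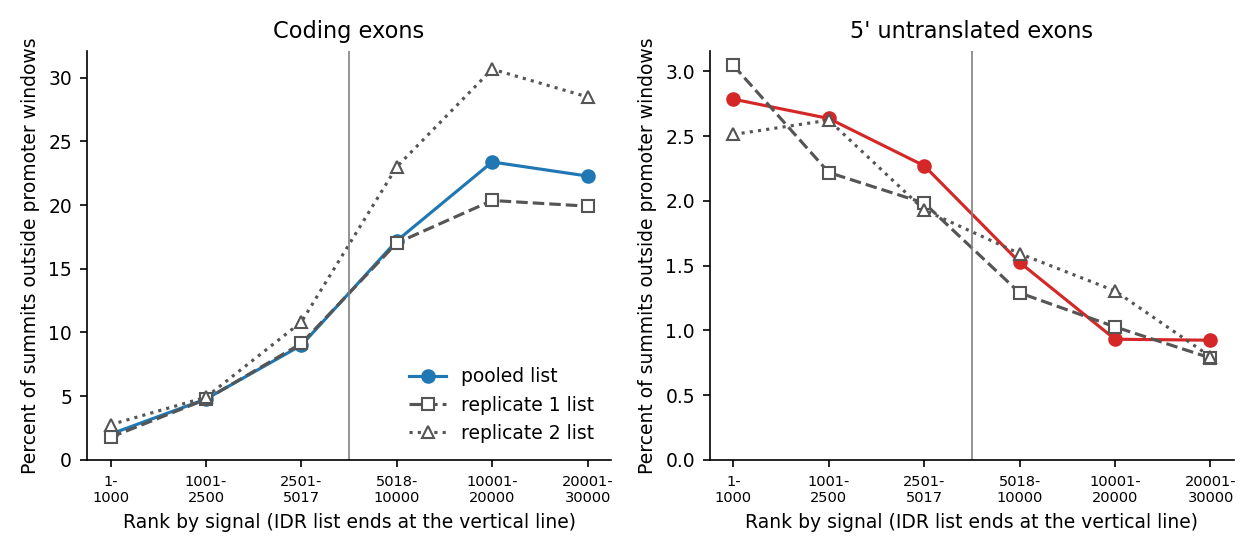
Share of summits outside promoter windows that lay in coding exons (left) and in 5' untranslated exons (right), in bins of falling signal, for the pooled list and each replicate list. The coding share climbs from 2.03% to 23.4% of the pooled list at ranks 10001 to 20000, and the 5' UTR share declines from 2.78% to 0.932%.

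The exonic peaks tended to have less signal than the list as a whole. Their median signal was 59.6 (quartiles 49.5 and 84.7), against 74.3 (54.7 and 114) over all 5017 peaks. The coding peaks had a median of 57.1, the 3' UTR peaks 60.8 and the 5' UTR peaks 76.1. Of the exonic peaks, 70 of 216 (32.4%, interval 26.2 to 39.1%) were among its 2508 strongest. The sources used here give no scale for the signal, which may rise with depth, and depth is unknown.

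Fewer exonic peaks than other peaks were strong in both replicates. A summit within 100 bp among the 5017 strongest peaks of both replicates was found for 110 of the 216 (50.9%, interval 44.1 to 57.8%), where 69.5% of all reproducible peaks had one. The share was 69.8% for 5' UTR peaks (37 of 53), 45.0% for coding peaks (63 of 140) and 9 of 20 for 3' UTR peaks, against 66.2% for introns. Signal moved with this share, so it was also counted within ranges of rank. At ranks 1 to 2500, 62 of 70 exonic peaks (88.6%, interval 78.7 to 94.9%) were strong in both replicates, against 96.1% of the peaks that are not exonic (95.3 to 96.9%). At ranks 2501 to 5017 it was 48 of 146 (32.9%, 25.3 to 41.1%), against 43.8% (41.8 to 45.8%). In that lower range the share was 31 of 103 for coding peaks (30.1%, 21.5 to 39.9%) and 12 of 26 for 5' UTR peaks (46.2%, 26.6 to 66.6%).

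Replicate summits matched to exonic peaks were mostly exonic too. A match had to lie within 100 bp of a summit already chosen as exonic, which favours agreement. Of 199 exonic peaks with a replicate 1 summit within 100 bp, 179 (89.9%) had that summit in an exon outside promoter windows too, and 190 of 207 (91.8%) did in replicate 2. Of the 190 matched in both, 159 (83.7%) were exonic in both. When a replicate summit of a coding peak left the exon, it was most often in an intron, 10 of 130 in replicate 1 and 12 of 134 in replicate 2. The distance between the 2 replicate summits had a median of 32 bp for exonic peaks and 23 bp over all peaks. The replicate signals of single peaks could differ widely, with the log2 ratio of replicate 2 over replicate 1 from -2.27 to 2.98 and a median of 0.05.

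**Figure D3:**
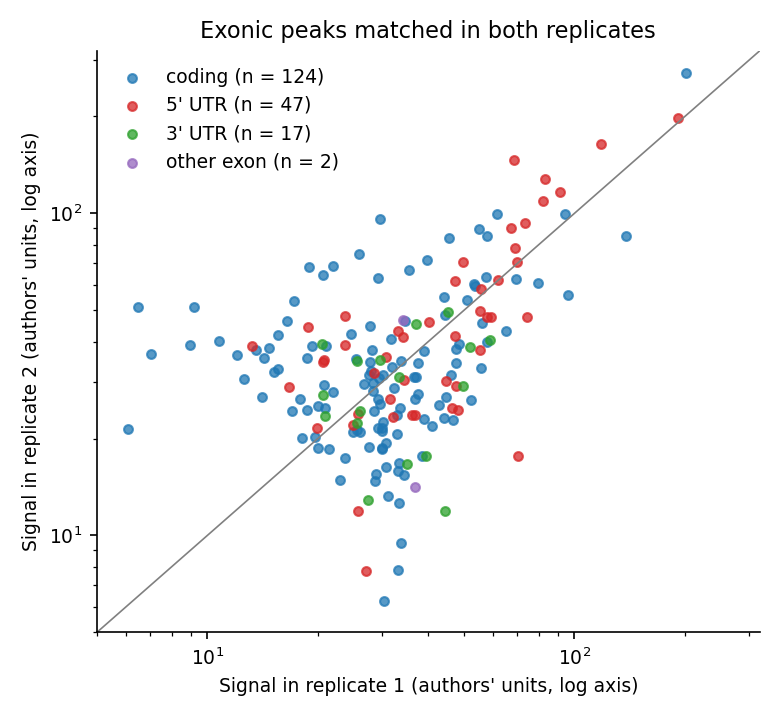
Signal in replicate 1 against replicate 2 on log axes for the 190 exonic peaks matched in both, coloured by exon class, with the line of equal signal. The points scatter to both sides of the line, with log2 ratios from -2.27 to 2.98, both extremes being coding peaks.

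The peaks in 5' UTRs lay mostly in the first exon of an isoform, as most 5' UTR sequence does. Of the 53, 50 (94.3%, interval 84.3 to 98.8%) were in the first exon of at least one isoform, against 83.4% of 5' UTR bases outside promoter windows. In 31 (58.5%, 44.1 to 71.9%) the summit was also in an intron of another isoform, against 54.2% of bases, and in 30 (56.6%, 42.3 to 70.2%) an isoform starts further downstream, against 51.7% of bases. They lay a median of 1279 bp downstream of the gene's own 5' end. For 26 of the 53 (49.1%, interval 35.1 to 63.2%) an annotated 5' end of a protein-coding isoform was within 200 bp, where 36% of 5' UTR bases outside promoter windows are that close. That share of bases is inside the interval, so the count does not separate the peaks from 5' UTR sequence. Within 200 bp of an annotated isoform 5' end 5' UTRs held 152 peaks per Mb, and beyond it still 88.8 per Mb.

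Coding peaks were near internal starts more often than coding bases, but fewer of them had one than 5' UTR peaks. An isoform start within 200 bp was annotated for 19 of 140 (13.6%, interval 8.37 to 20.4%), against 4.23% of coding bases. Coding sequence held 28.1 peaks per Mb within 200 bp of such a start and 7.89 per Mb beyond. None of the 20 peaks in 3' UTRs had a start within 500 bp (0 of 20, interval up to 16.8%), and 4.03% of 3' UTR bases do, so the count does not separate the peaks from 3' UTR sequence. When promoter windows were drawn around every isoform's 5' end instead of the gene's, 149 of the 216 remained exonic, and 121 of the 140 coding peaks were over 200 bp from any such start.

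**Figure D4:**
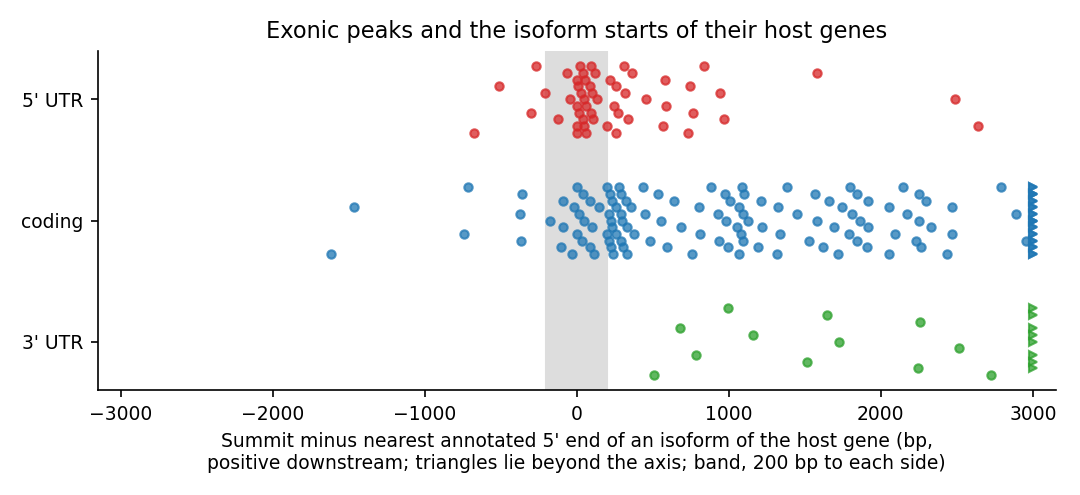
Distance in bp from the nearest annotated 5' end of an isoform of the host gene to each summit, positive downstream, for 5' UTR, coding and 3' UTR peaks, with a band at 200 bp to each side. The 5' UTR peaks gather in and beside the band, coding peaks spread beyond 1000 bp and no 3' UTR peak is inside the band.

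The strongest 5' UTR peak was in C34C12.2, with a pooled signal of 388 and replicate signals of 191.8 and 198, at position 3456423 of chromosome III. It lay in a first exon, 2637 bp downstream of the only annotated start. The peak in Y43F8B.2 had a pooled signal of 281 and replicate signals of 118 and 164, and its summit was 2 bp downstream of the start of an internal isoform. Its replicate 1 summit was in an intron. The next were unc-62, which encodes a Meis-type homeodomain factor, at 207 (replicates 83.1 and 128), gldi-8 at 206 (91.6 and 117) and T28F4.5 at 200.2 (68.7 and 147). All 5 were higher in replicate 2 than in replicate 1, by the smallest margin in C34C12.2 and by the largest in T28F4.5.

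The strongest coding peak, in the polyketide synthase gene pks-1, was far above the other coding peaks. Its pooled signal was 475, with 202 in replicate 1 and 274 in replicate 2, and its rank in the whole list was 23. The summit, at position 5429560 of chromosome X, was in exon 22 of 30 and 15750 bp from the gene's start, with no isoform start nearby and the next peak 38509 bp away. The following were Y43F8B.2 at 210.5 (replicates 139 and 84.9), the patched-related gene ptr-14 at 194 (94.4 and 99.3) and the nuclear receptor gene nhr-91 at 153 (96.1 and 55.8). A further coding peak of Y43F8B.2 had 144 (54.99 and 89.5), the globin gene glb-15 had 143 (61.7 and 99.8) and Y39A1A.10 had 140.4 (57.9 and 85.0). The 10 strongest ended with ajm-1, which encodes a protein of the apical junctions of epithelia, at 129 (45.7 and 84.2), the MAPK-activated kinase gene mak-1 at 125.7 (69.2 and 62.7) and ugt-65, of the UDP-glucuronosyltransferase family, at 120.2 (79.6 and 60.9). In 4 of these 10 replicate 1 was the higher, so neither replicate was higher throughout. The replicate 1 summit of glb-15 was in a 3' UTR, the replicate 2 summit of nhr-91 was in an intron, and the replicate 2 summits of mak-1 and ugt-65 were in 3' UTRs.

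The 3' UTR peaks were few, and the strongest had no match in replicate 1. It was in ZK470.2, with a pooled signal of 165 and 106 in replicate 2, and no replicate 1 summit lay within 100 bp. Another reproducible summit, in intergenic sequence, lay 203 bp away. A missing match does not show that replicate 1 had no signal there. The others of the 5 strongest were sinh-1 at 98.1 (replicates 45.1 and 49.4), nono-1 at 97.4 (58.9 and 40.3), PDB1.1 at 85.6 (51.98 and 38.4) and bed-2, named for a BED zinc finger, at 84.0 (36.97 and 45.2). The replicates differed in either direction among these 4.

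Some genes held several exonic peaks. The 216 were in exons of 186 genes, of which 167 held 1, 12 held 2, 2 held 3 and 5 held 4. Those with 4 were Y43F8B.2, ZK470.2, unc-62, the MAP kinase-interacting kinase gene mnk-1 and tent-5, of the terminal nucleotidyltransferases. Those with 3 were mak-1 and hsp-1, which encodes a constitutive Hsp70 chaperone. All 4 peaks of unc-62 were in 5' UTRs, at 8139, 10485, 10687 and 12228 bp from the gene's start, with pooled signals of 88.5, 207, 52.4 and 48.2. The last 3 shared 1 first exon of 2945 bp, and their positions are intronic in the other 17 of 18 isoforms. The called intervals of the peaks at 10485 and 10687 bp overlap. In Y43F8B.2 the peaks at 10251, 11311, 11955 and 12839 bp had pooled signals of 281, 53.4, 144 and 210.5. The first 3 of these were within 50 bp of an annotated isoform start, at 2, 37 and 50 bp, and a stronger peak of 338 lay in an intron upstream. The starts at 37 and 50 bp belong to isoform models that begin with coding sequence and have no annotated 5' UTR. The 3 peaks of hsp-1 were all coding, in exons 2 and 3, and the strongest had 84.6, with 22.02 in replicate 1 and 68.9 in replicate 2. The intervals of the peaks in exon 3 of hsp-1 overlap.

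The peaks of the other genes with 3 or more were spread over classes or exons. In tent-5, a 5' UTR peak of pooled signal 104.4 (replicates 55.3 and 49.8) lay 108 bp downstream of an internal start. Its coding peaks had 72.4 (44.2 and 23.1) and 57.8 (37.5 and 27.5), and its 3' UTR peak had 51.6 (27.4 and 12.9). All 4 were higher in replicate 1. In mnk-1, the coding peaks had 94.1 (57.7 and 39.98) and 43.9 (13.6 and 37.6), higher in replicate 1 for the first and in replicate 2 for the second. For the peak at 94.1, the summits of both replicates were in an intron. The 5' UTR peaks of mnk-1, 62 and 47 bp downstream of internal starts, were each matched in 1 replicate only. The first had 56.3 in replicate 2 and the second 21.5 in replicate 1, where its summit was in an intron. In ZK470.2, the coding peaks had 74.5 (44.7 and 26.9), 49.4 (35.7, with no replicate 2 match) and 45.7 (28.5 and 24.3), so the strong replicate 2 value of its 3' UTR peak was not shared by its other peaks. For its peak at 74.5, the summits of both replicates were in an intron, and 15.1% of the called interval was exonic. In mak-1, the second peak had 118, with 29.5 in replicate 1 and 95.8 in replicate 2, and the third, 204 bp away, had 45.01 and was matched in replicate 2 only, at 34.7.

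**Figure D5:**
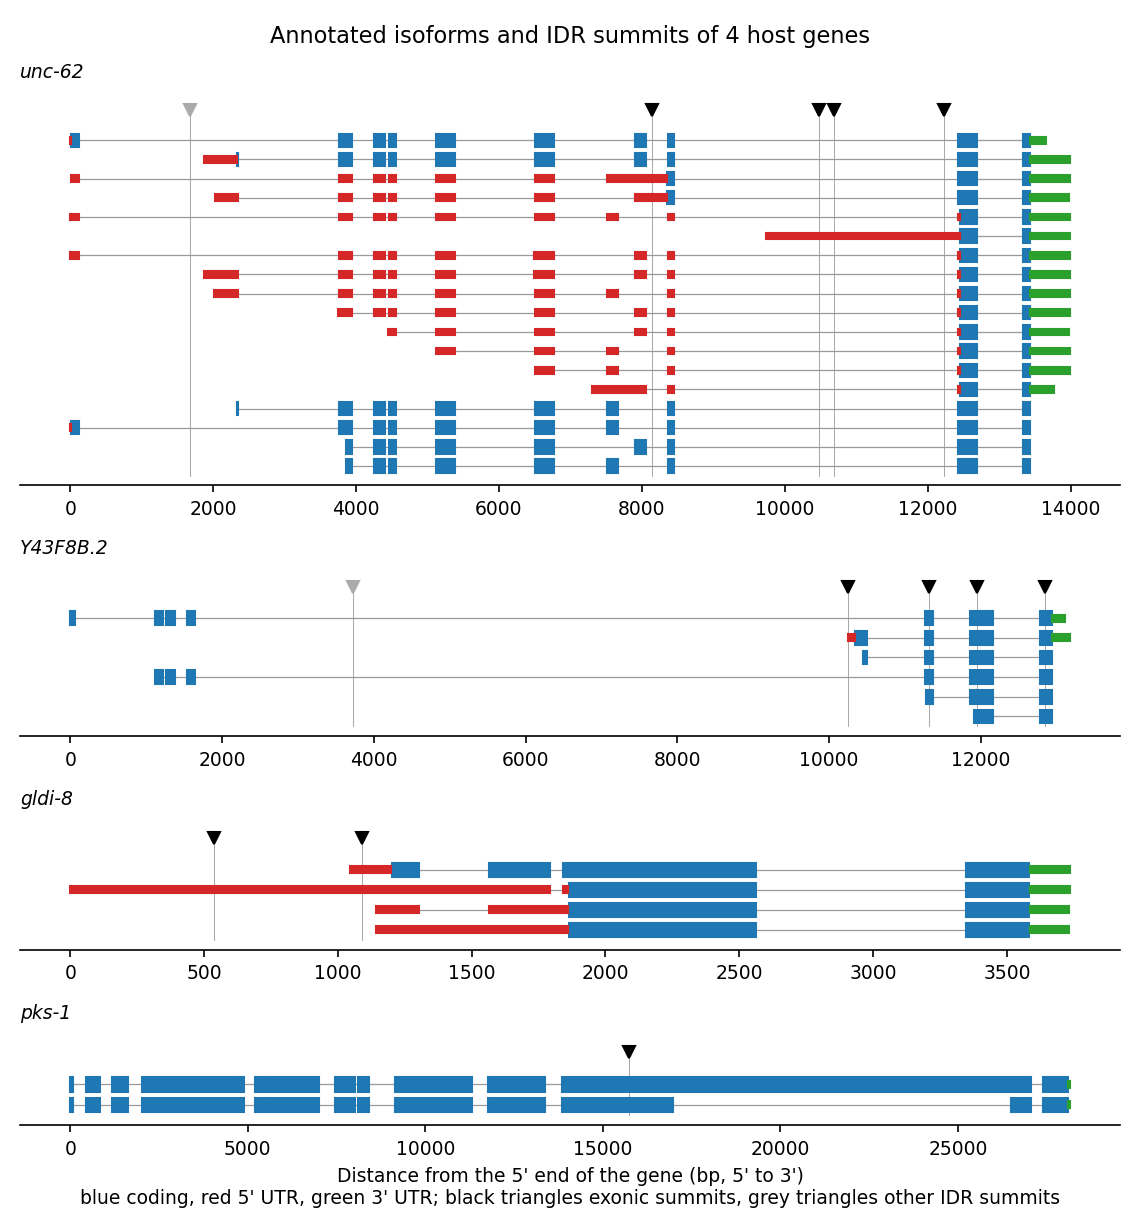
Annotated isoforms of unc-62, Y43F8B.2, gldi-8 and pks-1 in bp from the 5' end of each gene, 1 line per isoform (introns too short for the scale are not visible), with exonic summits as black and other summits as grey triangles. In unc-62, 3 summits fall in a single long 5' UTR exon. Of the 4 exonic Y43F8B.2 summits, 3 lie at annotated internal starts, some of them of models without a 5' UTR. The pks-1 summit stands alone in the coding region.

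Neighbouring peaks were close. The nearest other reproducible summit was a median of 1411 bp from an exonic peak, against 2668 bp over all peaks and 1809 bp for intronic ones. Another summit lay within 500 bp for 30 of 216 (13.9%, interval 9.57 to 19.2%), against 5.22% of all peaks. The share was 13.6% for coding and 15.1% for 5' UTR peaks. Among peaks at ranks 1 to 2500 it was 7 of 70 exonic peaks (10%, interval 4.12 to 19.5%), against 4.86% of the peaks that are not exonic, a value inside that interval. At ranks 2501 to 5017 it was 23 of 146 (15.8%, 10.3 to 22.7%), against 4.81%. The nearest neighbour was a promoter peak for 95 (44.0%, against 55.5% over all peaks), an intronic peak for 50 (23.1%, against 21.1%) and another exonic peak for 52 (24.1%, interval 18.5 to 30.3%, against 4.68%). Among the 1931 other peaks outside promoter windows these shares were 35.2%, 33.4% and 3.78%. Against those peaks, exonic ones had a promoter neighbour more often and an intronic one less often. Exonic pairs that are each other's neighbour enter from both sides, and several are peaks of 1 gene. Some have overlapping called intervals, as in unc-62 and hsp-1, so 1 stretch of signal can be counted as more than 1 peak.

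The summits were often near an exon's edge, about as often as exon bases in general. Coding summits lay a median of 54.5 bp from the nearest edge of their exon stretch, with overlapping exons merged, and 67 of 140 (47.9%, interval 39.3 to 56.5%) were within 50 bp, against 40.0% of coding bases. Their exons had a median length of 310 bp, against 311 bp for the exons that coding bases lie in. The 5' UTR peaks were in exons of median 661 bp, against 900 bp for 5' UTR bases, and 14 of 53 (26.4%, interval 15.3 to 40.3%) were within 50 bp of an edge, against 17.3% of bases. The called intervals, of median width 350 bp, were a median of 80.7% exonic.

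The extended half-site was present at few exonic peaks. It was within 100 bp of the summit in 4 of 216 (1.85%, interval 0.507 to 4.67%), where 3.45% of all reproducible peaks had it. In 91735 windows of the same length that tile the exons outside promoter windows, 0.571% had it. In windows centred 1000 bp to each side of the exonic summits 0.463% had it on either side. The interval of the exonic share holds both the value over all peaks and that of the tiles, so this count separates it from neither. The exonic summits among the strongest peaks of single replicates had it at 2.59% of 232 in replicate 1 and 3.57% of 252 in replicate 2. Both values are inside that interval too. Its carriers were the sites printed above, at 70 bp from the summit in gldi-8, 73 bp in ugt-65, 13 bp in dhs-29 and 50 bp in D1086.8. Pooled signals there were 148 (replicates 68.8 and 78.2) for the second gldi-8 peak, 120.2 for ugt-65, 93.6 (44.4 and 48.3) for dhs-29, a short-chain dehydrogenase gene, and 81.7 (34.5 and 46.3) for D1086.8.

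The shorter core was met at 12 of the 216 (5.56%, interval 2.90 to 9.50%), against 6.80% of all peaks and 1.79% of exon tiles. For coding peaks it was 10 of 140 (7.14%, 3.48 to 12.7%), against 1.89% of coding tiles, and the top lists gave 6.99% in replicate 1 and 8.24% in replicate 2. At ranks 1 to 2500, 6 of 37 coding peaks had it (16.2%, 6.19 to 32.01%), and at ranks 2501 to 5017 4 of 103 (3.88%, 1.07 to 9.65%). Peaks that are not exonic had it at 7.33% and 6.37% in these ranges, each inside the coding interval. For 5' UTR peaks the core was met at 1 of 53 over all ranks. The apy-1 peak, whose core is printed above, had a pooled signal of 53.6, with 51.3 in replicate 1 and no replicate 2 match. Tiles had a median GC content of 39.3% and exonic peaks 41.8%, and the part of GC in these shares was not tested.

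GAGAGA was more frequent at 5' UTR peaks than at coding ones. A GAGAGA on either strand within 100 bp was found for 25 of 53 5' UTR peaks (47.2%, interval 33.3 to 61.4%), against 14.03% of 5' UTR tiles. The replicate lists gave 44.9% and 53.1%. For coding peaks it was 16 of 140 (11.4%, interval 6.68 to 17.9%), close to the 10.1% of coding tiles, and the replicate lists gave 15.4% and 11.8%. Over all 5017 peaks 37.9% had it, and over intronic peaks 43.1%. The difference between the classes was present at both ends of the ranking, with 12 of 27 5' UTR peaks and 5 of 37 coding peaks at ranks 1 to 2500 and 13 of 26 and 11 of 103 at ranks 2501 to 5017. GATAAG, the element known for GATA factors, was at 13.4% of exonic peaks (interval 9.18 to 18.7%), against 10.8% of all peaks and 8.35% of exon tiles. Median GC content was 43.3% at 5' UTR peaks and 36.3% in 5' UTR tiles, and 42.3% at coding peaks and 39.8% in coding tiles. The part of GC in the GAGAGA shares was not tested. A match says only that these letters lie in the window.

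Of 19973 protein-coding genes, 0.931% held an exonic peak outside promoter windows. The gene lists below were counted against that share without a test, and also per Mb of exon, since long genes offer more exon. Nuclear hormone receptor genes held one in 11 of 274 (4.01%, interval 2.02 to 7.07%), or 46.4 peaks per Mb of exon, against 11.6 per Mb over all genes. The strongest were nhr-91, nhr-141 at 76.7 (replicates 33.2 and 43.04) and nhr-34 at 76.1 (23.8 and 48.2). Heterochronic genes, which time larval development, held one in 3 of 22, or 53.5 per Mb. Those were alg-1, an Argonaute gene of the microRNA pathway, at 189 (82.4 and 109), din-1, which encodes a corepressor of the receptor DAF-12, at 170.1 (73.3 and 93.6), and lin-42, the worm period homologue, at 61.9 (13.3 and 38.9). All 3 of these peaks were in 5' UTRs, and din-1 had a second, coding peak at 60.3 (29.96 and 21.5).

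Cuticle collagens held an exonic peak in 4 of 178 genes (2.25%, interval 0.616 to 5.65%), or 36.99 per Mb. The strongest were col-90 at 80.6 (replicates 46.2 and 31.6), col-111 at 69.9 (46.4 and 24.8) and ram-2 at 60.4 (17.2 and 53.6). Hedgehog-related and patched-related genes held one in 3 of 85 (3.53%, interval 0.734 to 9.97%), or 33.7 per Mb. Those were ptr-14, ptr-13 at 55.01 (32.9 and 20.7) and the warthog gene wrt-6 at 43.5 (7.004 and 36.6). The intervals of the collagen and hedgehog lists both hold the 0.931% over all genes, so these shares do not separate them from it. Molting genes held 2 of 36, or 20.8 peaks per Mb of exon, lin-42 and the peroxidase gene mlt-7 at 49.2 (20.9 and 24.9). Epidermal junction and attachment genes held 2 of 22, or 15.9 per Mb, ajm-1 and the spectraplakin gene vab-10 at 54.4, which had no replicate 1 match. The vulval list had lin-45, a Raf kinase gene, at 60.4 (36.2 and 23.6), and the Wnt list had lit-1, a Nemo-like kinase gene, at 108 (57.9 and 47.8). These 2 lists had 15.96 and 17.5 per Mb. With 1 or 2 peaks each, the molting, junction, vulval and Wnt lists were nearer, as a ratio, to the 11.6 per Mb over all genes than their shares of genes were to 0.931%. Chemoreceptor genes, mostly expressed in few neurons, held 2 of 1163 (0.172%), or 3.42 per Mb, srh-2 at 112 (55.7 and 58.2) and srw-85 at 78.4 (52.2 and 26.3). Lists for epidermal transcription factors, Hox, lipid, muscle, intestine, neuron, germline, ribosomal protein and histone genes held 0. Each list is a selection, so a count of 0 speaks only for the genes on it. The fatty acid elongase gene elo-7, on no list, held a coding peak at 63.9 (46.6 and 22.8). Ribosomal protein and histone genes offer almost no exon outside promoter windows, 0.00743 and 0.00146 Mb, and for the short lists a count of 0 limits little, since 0 of 21 epidermal transcription factor genes allows a share of up to 16.1% (exact interval).

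By chromosome, exonic peaks ranged from 8.81 per Mb of exon on I to 15.4 on X, where 51 lay. X also had the most reproducible peaks per Mb of sequence, 61.2. Within 20 kb of nhr-25, the gene that the transgene copies, 15 reproducible summits were listed and 0 were exonic, and within 20 kb of unc-119 there were 0 of either kind. Repeated sequence touched few exonic peaks, with any 36-base word found elsewhere in the genome for 9 of 216 (4.17%), against 5.48% of all peaks. A non-coding gene's start was within 200 bp for 13 (6.02%), against 16.3% of all peaks.

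The limits of the promoter window cut through a continuous range of positions. Nearest outside the upstream limit were drap-1, 2042 bp upstream of another gene's start with a signal of 44.3, and nurf-1, 2050 bp upstream with 71.6. Just inside were cutl-27 at 1972 bp with 68.8 and T28C6.5 at 1961 bp with 125. At the downstream limit aldo-2, 206 bp from its start with 84.6, and exos-9, 207 bp with 46.0, were just outside, and ZK180.5 at 191 bp with 45.2 and K10B3.5 at 187 bp with 132 just inside. With no promoter windows at all, 500 summits were exonic, 284 of them in a window, of which 139 were in 5' UTRs and 88 in coding sequence.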

How the data were processed

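ChIP-seq peaks of tagged NHR-25 were analysed for 2 replicates of 1 group. The authors deposited, per the file headers and index text, a peak list for each replicate and for the pooled replicates, each called against a control, and a list of peaks that passed IDR, a test of reproducibility between replicates. The deposited signal column holds a height per peak, the deposited −log10 q-value column was tied at 3.86 for 71.8% of IDR peaks and so did not serve for ranking, and the deposited offset gives the summit. The sources used here name neither the aligner nor the peak caller. Lists on ce10 were not used. Depth is unknown, so no floor on reads can be given.

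Summits were classed, in this order, as promoter window, coding exon, 5' UTR, 3' UTR, exon of a non-coding isoform, intron, a gene without coding sequence, or intergenic, from Ensembl release 115 (piRNA genes left out), with the RefSeq WBcel235 genome for sequence. Shares of bases and of tiles of the motif window's length are censuses of all exon sequence. Classing and motif search were tested on simulated positions and elements. Python 3.11.15, NumPy 2.4.6, SciPy 1.17.1 and matplotlib 3.10.9 were used. The peaks and the gene lists were chosen with earlier results of these data known. Named genes were the hosts of the 10 strongest coding, 5 strongest 5' UTR and 5 strongest 3' UTR peaks, of peaks with an extended half-site, of genes with 3 or more peaks, of the 3 strongest peaks per list, and of the peaks nearest the window limits. Counts within ranges of rank, and the elo-7 peak, were added after the data were seen.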

Additional observations from a re-analysis of the deposited data

How the results depend on the processing

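No paired analysis was possible because there is 1 group. The count of 216 exonic peaks stayed between 149 and 289 with promoter windows of 1000 or 500 bp, windows at every isoform start, constitutive exons or single replicates (232 to 252). It was 70 among the 2508 strongest peaks, 849 in a pooled list 2 times as long, and 125 when 50 bp to each side had to be exonic too. The share outside promoters, 10.1%, was 9.46% with 1000 bp and 9.14% with 500 bp windows, 8.76% with isoform starts, 7.92% with constitutive exons, 6.97% among the 2508 strongest, 17.7% in the longer list, 5.82% with the exonic margin and 10.6 to 11.5% in single replicates. The share strong in both replicates was 36.6% with matches within 50 bp, 58.8% within 200 bp and 19.4% with top lists of 2508 peaks. Matched peaks exonic in both were 89.8% with 50 bp and 81.1% with 200 bp. The extended half-site was at 0.463% within 50 bp and 3.24% within 200 bp, and the core at 5.56%. Single replicates gave median signals of 30.6 to 32.1, on their own scale, half-site shares of 2.59 to 3.57%, GC contents of 40.3 to 43.3% and nearest-peak distances of 1308 to 1383 bp. Densities per Mb, an alternative chosen after seeing the data, gave 15.4 to 20.2 for 3' UTRs in single replicates and 18.8 with 500 bp windows, and 76.4 for 5' UTRs with isoform starts. The causes were not tested. Unknown depth and 2 replicates limit the precision.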
